A study of Mus musculus with 4 samples.

Results

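The 10 late neutrophil granule and alarmin genes *Camp*, *Ltf*, *Ngp*, *Lcn2*, *Chil3*, *S100a8*, *S100a9*, *Olfm4*, *Stfa3* and *Mmp8* were chosen by gene symbol, and all 10 were found among the 20656 genes measured on the arrays. Each was read by 1 probe set that names no other gene. Expression was measured in lineage-, c-Kit+, Sca1+ (LSK) cells, a population enriched for hematopoietic stem cells, sorted from fetal livers at E16.5. *Ddb1*-deficient LSKs (DDB1 flox/flox, VavCre+) were compared with control LSKs that carried the same floxed alleles but no Cre (VavCre-), on a C57BL/6x129 background and with 2 arrays in each group. Vav1-driven Cre acts throughout the hematopoietic compartment, so that Cre was not specific to LSKs. The sources used here do not state how many embryos went into each LSK sample. The p-values describe the scatter of these arrays alone.

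Neutrophils fill their granules in waves while they mature. Myeloperoxidase and serine proteases are packed into primary granules by promyelocytes, whereas lactoferrin, cathelicidin, lipocalin 2 and collagenase go into secondary and tertiary granules of later stages. S100A8 and S100A9 form calprotectin, an abundant cytosolic protein that binds calcium and zinc and acts as an alarmin once it is released. Stem and multipotent cells are not known for making these proteins in quantity, although their messages can appear in cells entering the granulocyte path.

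*Ddb1* itself had log2 intensities of 4.58 and 4.33 on the *Ddb1*-deficient arrays, against 6.06 and 6.26 on the control arrays (limma, adjusted p = 0.162), although where its probe set lies relative to the deleted part is not given in the sources used here. The sort markers were present in both groups, with *Kit* at 6.41 and 5.63 on the *Ddb1*-deficient arrays, against 6.18 and 6.40 on the control arrays, and *Ly6a*, which encodes Sca1, at 7.01 and 6.84 in *Ddb1*-deficient LSKs, against 7.30 and 6.32 in control LSKs. Of 12 LSK and stem cell genes, including *Kit* and *Ly6a*, 5 were higher and 1 lower at an unadjusted p under 0.05 by limma. Over all genes these shares were 4.90% and 6.03%. The log2 difference was 3.14 for *Mecom*, 2.73 for *Procr*, 1.46 for *Hlf* and -4.19 for *Flt3*. By flow cytometry at E16.5 the paper reports relatively more long-term stem cells and fewer multipotent progenitors after *Ddb1* deletion. The part of this shift in the result was not tested. *Itgam*, which encodes the Mac-1 chain of mature myeloid cells, lay below the median probe set (log2 2.06) on all 4 arrays, at 1.46 and 1.78 in *Ddb1*-deficient LSKs, against 1.64 and 1.56 in control LSKs. Other genes expressed in mature myeloid cells, though not only there, were bright in both groups. *Itgb2*, which encodes the partner chain, was at 7.03 and 6.61 in *Ddb1*-deficient LSKs, against 6.38 and 6.72 in control LSKs. *Csf1r* was at 11.57 and 11.79 in *Ddb1*-deficient LSKs, against 8.98 and 9.52 in control LSKs. Macrophage markers stood apart between the groups: 17 of 17 were higher on both *Ddb1*-deficient arrays than on both control arrays, an order that 22.5% of all genes had, with summed linear intensities of 19928 and 23922, against 3094 and 4753 on the control arrays. *Xist* was high on array 2 of each group (9.96 and 10.09) and low on array 1 (2.15 and 1.93), so that the arrays of a group did not hold the same cells, and the number of an array and the sex of its cells cannot be told apart.

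The promoters of all 10 genes, which lie on 5 chromosomes, were taken from RefSeq (GRCm38.p6). Windows from 250 bases before to 50 bases after the start were searched for TTGCNNAA on both strands, a short core bound by C/EBP factors of granulocytes, for GAGGAA on both strands, a core of sites of the ETS factor PU.1, and for TATAAA on the coding strand starting between positions -40 and -20. TTGCNNAA was found for 5 of the 10 genes (*Lcn2*, *Ltf*, *Mmp8*, *Ngp* and *S100a9*), while 10.8% of all 32851 promoters hold it. GAGGAA was found for 6 (*Lcn2*, *Ltf*, *Mmp8*, *Olfm4*, *S100a8* and *Stfa3*), against 28.3% of all promoters, and TATAAA for 1 (*S100a8*), against 1.99%. No 2 matches overlap in these promoters, and a match describes letters, not binding. Any part of these motifs in the lower signal was not tested. *Camp* and *Chil3* had no match to any of these motifs in the whole window. The 150 bases before the start are printed 5′ to 3′ for 5 genes, with matches in capitals: *S100a8* (chr3:90668921-90669070, plus strand) for its TATAAA at position -30 and the GAGGAA match directly before it, *Ngp* (chr9:110419658-110419807, plus strand) for matches at positions -138 and -11, *Ltf* (chr9:111019142-111019291, plus strand) for its match at position -75, *Mmp8* (chr9:7558279-7558428, plus strand), whose signal differed least, for a match at position -19, and *Chil3* (chr3:106167565-106167714, minus strand), whose signal differed most, with no match in the whole window.
S100a8: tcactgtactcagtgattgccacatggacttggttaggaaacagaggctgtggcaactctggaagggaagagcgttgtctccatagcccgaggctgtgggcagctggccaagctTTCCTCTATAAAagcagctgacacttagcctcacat
Ngp: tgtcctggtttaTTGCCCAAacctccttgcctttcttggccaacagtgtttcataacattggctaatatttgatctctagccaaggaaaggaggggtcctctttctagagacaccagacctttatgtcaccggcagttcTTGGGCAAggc
Ltf: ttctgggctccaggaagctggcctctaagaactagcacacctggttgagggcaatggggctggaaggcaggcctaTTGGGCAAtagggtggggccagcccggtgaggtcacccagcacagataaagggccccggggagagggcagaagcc
Mmp8: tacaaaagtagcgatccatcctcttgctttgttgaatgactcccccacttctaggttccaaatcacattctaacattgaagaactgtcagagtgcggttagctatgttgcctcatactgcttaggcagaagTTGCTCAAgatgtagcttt
Chil3: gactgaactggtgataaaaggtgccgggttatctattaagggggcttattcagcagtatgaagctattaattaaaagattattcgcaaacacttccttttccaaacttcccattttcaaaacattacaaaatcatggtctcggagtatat

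Nearly the whole set was lower in *Ddb1*-deficient LSKs. Both *Ddb1*-deficient arrays lay below both control arrays for 9 of 10 genes, while 18.5% of all genes had this order, and 25.4% of the genes with a mean above the median probe set, as all 10 had. These 9 genes reached an unadjusted p under 0.05 in the lower direction by limma, against 6.03% of all genes and 10% of those above the median probe set, and none was higher. Over the 10 genes the log2 difference had a median of -4.71, a 26.1-fold lower signal, while the median over all genes was 0.03. Without *Ddb1*-deficient array 2 the median of the 10 genes was -3.92. After Benjamini-Hochberg adjustment over all 20656 genes limma called 0 of the 10 and 0% of all genes, with adjusted p of the members between 0.133 and 0.760. The genes were picked with earlier results of these arrays known, so that the counts describe them and are not independent evidence. In sorted cells measured in bulk, fewer cells of a type and less RNA per cell cannot be told apart. The macrophage markers differed in the opposite direction on the same arrays (17 of 17 higher, median log2 difference 2.75), and their part in the result was not tested.

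**Figure D1:**
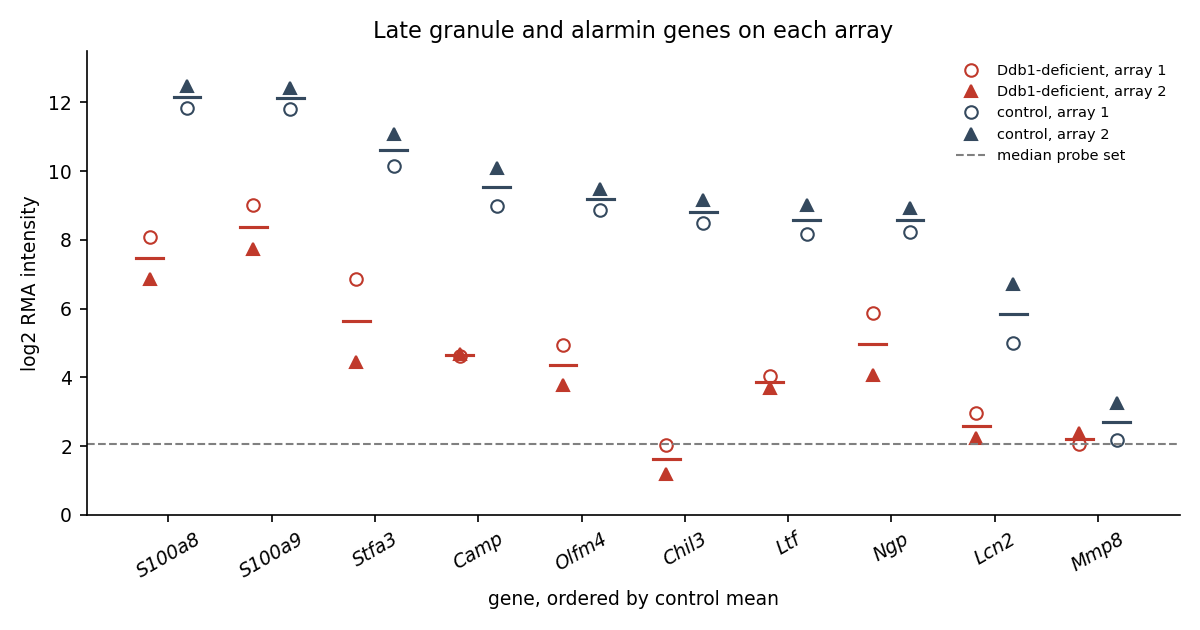
Log2 RMA intensity (y axis) of the 10 genes (x axis, ordered by control mean) on the 2 *Ddb1*-deficient arrays (red) and the 2 control arrays (dark blue), with circles for array 1, triangles for array 2, short bars for group means and a dashed line at the median probe set (log2 2.06). For all genes but *Mmp8* both red points lie below both blue points, and all blue triangles lie above the blue circles.

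The alarmins *S100a8* and *S100a9* were the brightest of the set in both groups. *S100a8* had log2 intensities of 8.07 and 6.85 on the *Ddb1*-deficient arrays, against 11.84 and 12.47 on the control arrays, a log2 difference of -4.70 with a standard error of 0.51 (adjusted p = 0.157). *S100a9*, its partner in calprotectin, was at 9.0 and 7.73 in *Ddb1*-deficient LSKs, against 11.82 and 12.43 in control LSKs, a difference of -3.76 with a standard error of 0.53 (adjusted p = 0.184). The groups did not overlap for either gene, and even the higher *Ddb1*-deficient array lay 3.78 log2 units under the lower control array for *S100a8* and 2.82 for *S100a9*. Without *Ddb1*-deficient array 1 the difference was -5.31 for *S100a8* and -4.39 for *S100a9*, and without *Ddb1*-deficient array 2 it was -4.09 for *S100a8* and -3.13 for *S100a9*. Ranked by signal among 20656 genes, with the brightest first, *S100a8* held places 1172 and 2368 in *Ddb1*-deficient LSKs, against 36 and 18 in control LSKs. The pair supplied 74.8% and 76.1% of the summed linear signal of the 10 genes in *Ddb1*-deficient LSKs, against 70.3% and 66.3% in control LSKs.

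The partners did not differ by the same amount. *S100a8* minus *S100a9* was -0.93 and -0.88 on the *Ddb1*-deficient arrays, against 0.03 and 0.04 on the control arrays, so that the log2 difference of *S100a8* was more negative by 0.94, with a pooled SD between arrays of 0.02. This comparison was chosen after its values were seen, and with 2 arrays in each group the smallest p of an exact permutation test is 0.333. The signal of *S100a9* thus stood closer to its control level than that of *S100a8* on each *Ddb1*-deficient array. On the control arrays both were near the top of the scale, at ranks 36 and 18 for *S100a8* and 39 and 21 for *S100a9*. Whether a limit of the scale hid a difference between them there was not tested. Other pairs compared in the same way varied more between arrays. Their pooled SD was 0.25 for *Camp* minus *Ltf*, 0.74 for *Ngp* minus *Ltf* and 0.46 for *Stfa3* minus *Stfa2l1*.

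The antimicrobial and iron-binding genes of secondary granules had lower signal as well. *Camp*, which encodes cathelicidin, had 4.61 and 4.69 in *Ddb1*-deficient LSKs, against 8.98 and 10.10 in control LSKs (log2 difference -4.89, SE 0.43, adjusted p = 0.139). *Ltf*, which encodes the iron-binding lactoferrin, was at 4.04 and 3.70 in *Ddb1*-deficient LSKs, against 8.16 and 9.02 in control LSKs (difference -4.72, SE 0.37, adjusted p = 0.133). For both genes the *Ddb1*-deficient arrays were close together and far under the controls, with gaps of 4.29 and 4.12 between the nearest arrays of the groups. *Ngp*, a cystatin-related protein of neutrophil granules, was at 5.88 and 4.08 in *Ddb1*-deficient LSKs, against 8.22 and 8.92 in control LSKs (difference -3.59, SE 0.71, adjusted p = 0.253). *Lcn2*, whose product withholds bacterial siderophores, was at 2.97 and 2.23 in *Ddb1*-deficient LSKs, against 4.99 and 6.71 in control LSKs (difference -3.25, SE 0.68, adjusted p = 0.273). These last 2 genes had the widest spread of the 9 relative to their difference, as the arrays within a group differed by up to 50.4% of the group difference for *Ngp* and 52.7% for *Lcn2*. The difference of *Ngp* was -4.49 without *Ddb1*-deficient array 1 and -2.68 without array 2, and that of *Lcn2* was -4.11 with control array 1 left out and -2.40 with control array 2 left out.

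*Olfm4*, an olfactomedin stored in the granules of a subset of neutrophils, had 4.93 and 3.78 in *Ddb1*-deficient LSKs, against 8.86 and 9.49 in control LSKs (log2 difference -4.83, SE 0.49, adjusted p = 0.156). *Mmp8*, neutrophil collagenase, was the exception. Its signal was near the median probe set throughout, at 2.05 and 2.37 in *Ddb1*-deficient LSKs, against 2.17 and 3.24 in control LSKs, and the groups overlapped. The log2 difference of *Mmp8* was -0.50 with a 95% interval from -1.70 to 0.70 (adjusted p = 0.760), and it was 0.04 without control array 2, so that for this gene no direction was detectable at its signal.

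*Chil3*, a chitinase-like lectin (Ym1) that mouse neutrophils store and that some macrophages also make, had the most negative difference of all 20656 genes. Its signal was 2.04 and 1.19 in *Ddb1*-deficient LSKs, against 8.48 and 9.15 in control LSKs, a log2 difference of -7.20 (95% interval from -8.38 to -6.03, adjusted p = 0.133). As both *Ddb1*-deficient values were under that of the median probe set, the 147-fold lower signal is uncertain in size. A further probe set names both *Chil3* and its close paralog *Chil4* and was at 2.21 and 2.55 in *Ddb1*-deficient LSKs, against 7.02 and 7.84 in control LSKs, a difference of -5.05 in a fit over every probe set (adjusted p = 0.188). *Chil4* by its own probe set was dim on all arrays (1.24 and 1.34 in *Ddb1*-deficient LSKs, against 1.24 and 1.46 in control LSKs). The other chitinases measured, *Chia1* and *Chit1*, were dim too, and *Chil1* was at 2.44 and 1.38 in *Ddb1*-deficient LSKs, against 3.53 and 3.18 in control LSKs.

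*Stfa3*, a stefin A that inhibits cysteine proteases, had 6.86 and 4.44 in *Ddb1*-deficient LSKs, against 10.14 and 11.09 in control LSKs (log2 difference -4.97, SE 0.94, adjusted p = 0.242). *Ddb1*-deficient array 2 minus array 1 was -2.42, the widest gap within a group for any of the 10 genes, and the difference of *Stfa3* was -6.18 without array 1 and -3.76 without array 2 of this group. Stefin A genes form a cluster of close copies, and probe sets of one may read others. *Stfa2l1* was at 7.09 and 5.28 in *Ddb1*-deficient LSKs, against 10.30 and 10.57 in control LSKs (difference -4.25, adjusted p = 0.202), and a probe set shared by *Stfa1* and *BC100530* was at 9.15 and 7.11 in *Ddb1*-deficient LSKs, against 12.19 and 12.50 in control LSKs (difference -4.21, adjusted p = 0.287 over every probe set). These 3 probe sets had non-overlapping groups with the same order of arrays. Of other family members, the cysteine protease inhibitors *Cst7* (1.40 and 1.36 in *Ddb1*-deficient LSKs, against 4.40 and 3.30 in control LSKs) and *Cst3* (9.20 and 9.33 in *Ddb1*-deficient LSKs, against 10.19 and 10.07 in control LSKs) were lower without overlap, whereas *Cstb* was at 10.05 and 10.23 in *Ddb1*-deficient LSKs, against 9.84 and 9.29 in control LSKs.

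**Figure D2:**
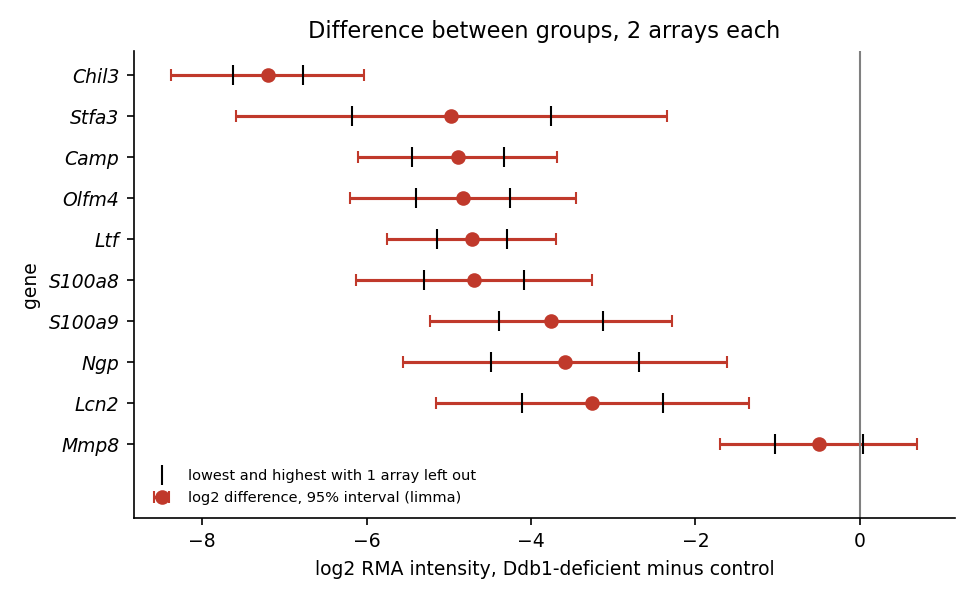
Log2 RMA intensity of *Ddb1*-deficient minus control LSKs (x axis) for each gene (y axis), with the 95% interval of limma (red bars, 2 arrays in each group) and black ticks at the lowest and highest difference when 1 array is left out. The intervals of 9 genes lie below 0 before adjustment, from *Chil3* at -7.20 to *Lcn2* at -3.25, and that of *Mmp8* spans 0.

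By rank of the difference over all genes, 6 of the 10 lay among the 20 most negative and 8 among the 50, with *Lcn2* at rank 54 and *Mmp8* at rank 3089. The summed linear intensity of the 10 genes was 1042 and 431 on the *Ddb1*-deficient arrays, against 10365 and 16883 on the control arrays. As a share of the summed signal of all genes this was 0.0678% and 0.0287% in *Ddb1*-deficient LSKs, against 0.640% and 1.06% in control LSKs.

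The arrays within a group also differed along the set. All 10 genes were higher on control array 2 than on control array 1, by 0.61 to 1.72 log2 units (median 0.78), while 49.5% of all genes had this order. In the *Ddb1*-deficient LSKs 8 of 10 were lower on array 2 than on array 1 (median difference -1.0), against 47.8% of all genes, the others being *Camp* (0.08) and *Mmp8* (0.31). Members of 1 set measured on the same arrays are not independent of each other. Other lists also differed between the arrays of a group. Of 7 B lineage genes 7 were higher on control array 2 (median 0.52) and 7 lower on *Ddb1*-deficient array 2 (median -3.16), and of 17 macrophage markers 16 were higher on control array 2 (median 0.56) but 14 higher on *Ddb1*-deficient array 2 (median 0.32). The 5 primary granule genes measured had the opposite order in the controls, with 5 of 5 lower on array 2 (median -0.51). The part of other cells in the difference between groups was not tested.

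**Figure D3:**
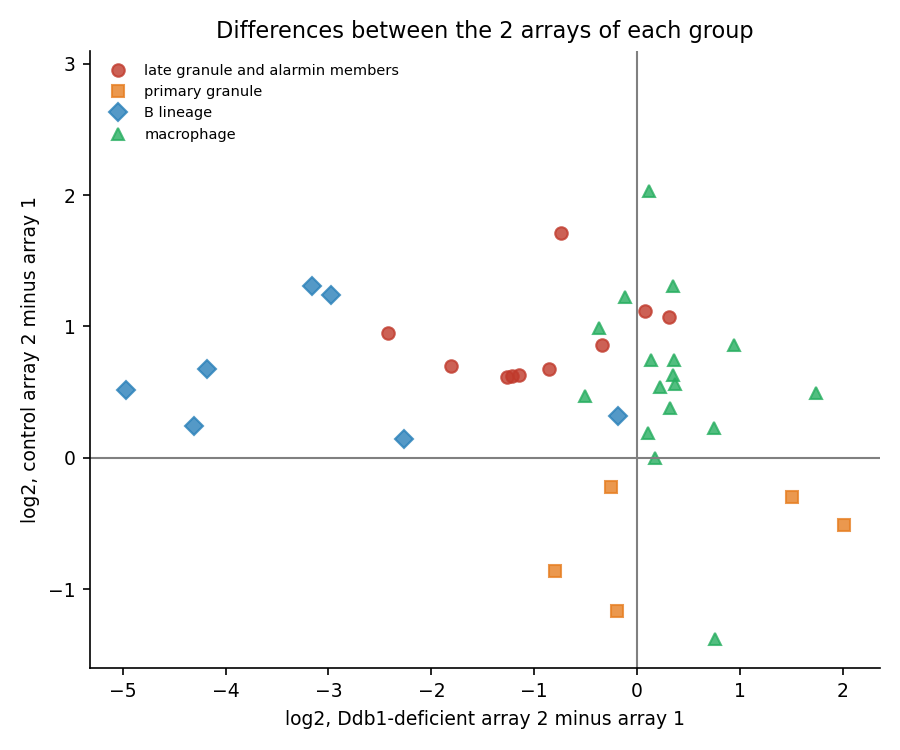
Difference in log2 RMA intensity between array 2 and array 1 of the *Ddb1*-deficient LSKs (x axis) and of the control LSKs (y axis) for the 10 genes (red circles), 5 primary granule genes (orange squares), 7 B lineage genes (blue diamonds) and 17 macrophage markers (green triangles). The red circles all lie above 0 on the y axis, and 8 lie left of 0 on the x axis, whereas the orange squares all lie below 0 on the y axis.

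Genes of the earlier granule wave were lower too. Of 6 primary granule genes 5 were measured, and 5 of 5 had both *Ddb1*-deficient arrays below both control arrays, against 18.5% of all genes, with a median log2 difference of -3.41. All 5 were lower at an unadjusted p under 0.05, against 6.03% of all genes, and 0 passed the adjusted threshold. *Mpo*, myeloperoxidase, was at 4.34 and 6.35 in *Ddb1*-deficient LSKs, against 11.70 and 11.19 in control LSKs, and *Ctsg*, cathepsin G, at 1.33 and 1.13 in *Ddb1*-deficient LSKs, against 7.37 and 6.20 in control LSKs. *Elane*, neutrophil elastase, was at 2.39 and 1.60 in *Ddb1*-deficient LSKs, against 5.83 and 4.97 in control LSKs. *Ms4a3*, counted in this list although its product is a membrane protein, was lower too. It was at 2.65 and 2.40 in *Ddb1*-deficient LSKs, against 5.11 and 4.89 in control LSKs. Unlike 8 of the 10 later genes, *Mpo* and *Prtn3* had more signal on *Ddb1*-deficient array 2 than on array 1, and whether the 2 waves differ in size was not tested.

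The wider program of maturing neutrophils was mixed. Of 24 further granule, oxidase and membrane genes measured (of 27 listed), 12 had both *Ddb1*-deficient arrays below and 3 above both control arrays, against 18.5% and 22.5% of all genes, 10 were lower and 1 higher at an unadjusted p under 0.05, against 6.03% and 4.90% of all genes, and the median log2 difference was -0.45. Among the lower ones were *Mcemp1* (3.57 and 1.56 in *Ddb1*-deficient LSKs, against 5.51 and 6.95 in control LSKs), *Ifitm6* (2.45 and 2.24 in *Ddb1*-deficient LSKs, against 4.71 and 5.66 in control LSKs) and *Anxa1*, annexin A1 (6.39 and 6.23 in *Ddb1*-deficient LSKs, against 8.85 and 9.20 in control LSKs). *Fpr1*, a receptor for formylated bacterial peptides, was the 1 higher gene, at 5.79 and 5.83 in *Ddb1*-deficient LSKs, against 3.08 and 3.72 in control LSKs (difference 2.41, adjusted p = 0.162). The lysozyme gene *Lyz2* (9.49 and 10.07 in *Ddb1*-deficient LSKs, against 9.83 and 10.66 in control LSKs) and the oxidase subunit *Cybb* (8.66 and 9.06 in *Ddb1*-deficient LSKs, against 8.72 and 8.73 in control LSKs), both shared with macrophages, overlapped between groups. The G-CSF receptor gene *Csf3r* was near or below the median probe set on all arrays, at 1.66 and 1.66 in *Ddb1*-deficient LSKs, against 2.29 and 1.88 in control LSKs.

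The other S100 genes were mixed. Of 12 measured, 1 was lower and 1 higher at an unadjusted p under 0.05, against 6.03% and 4.90% of all genes, 4 were lower and 3 higher without overlap, against 18.5% and 22.5% of all genes, and the median log2 difference was 0.00. These shares lie near those of all genes. *S100a13* was at 4.35 and 3.70 in *Ddb1*-deficient LSKs, against 5.23 and 5.35 in control LSKs, and *S100a4* at 5.89 and 6.03 in *Ddb1*-deficient LSKs, against 3.52 and 2.81 in control LSKs (difference 2.80, adjusted p = 0.157). *S100a10*, bright in both groups, was at 10.11 and 10.13 in *Ddb1*-deficient LSKs, against 10.84 and 10.42 in control LSKs, and *S100a11* at 8.81 and 7.78 in *Ddb1*-deficient LSKs, against 9.64 and 9.27 in control LSKs, both without overlap. Of 9 genes for receptors and adaptors of these alarmins and carriers, 0 were lower and 6 higher without overlap, against 18.5% and 22.5% of all genes. Their median log2 difference was 1.13. At an unadjusted p under 0.05, 0 were lower and 2 higher, against 6.03% and 4.90% of all genes. These were *Tlr4*, a receptor of S100A8 and S100A9, at 7.46 and 6.99 in *Ddb1*-deficient LSKs, against 5.06 and 6.02 in control LSKs, and the scavenger receptor *Cd36* at 6.84 and 7.09 in *Ddb1*-deficient LSKs, against 4.97 and 5.69 in control LSKs, on arrays that also carried more macrophage signal, whose part in this was not tested.

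Among transcription factors of granulocyte formation the median log2 difference of 9 genes measured was -0.06, with 3 lower and 1 higher at an unadjusted p under 0.05, against 6.03% and 4.90% of all genes. *Irf8*, which favours monocytes, was at 3.84 and 3.92 in *Ddb1*-deficient LSKs, against 6.43 and 6.02 in control LSKs (difference -2.34, adjusted p = 0.146). *Myb* was at 9.98 and 9.77 in *Ddb1*-deficient LSKs, against 11.10 and 10.94 in control LSKs, and *Runx1* at 8.42 and 7.90 in *Ddb1*-deficient LSKs, against 9.15 and 9.06 in control LSKs. *Gfi1*, a repressor needed for neutrophil formation, was the higher gene, at 7.96 and 7.90 in *Ddb1*-deficient LSKs, against 6.92 and 5.67 in control LSKs. *Cebpa*, which starts granulocyte commitment, overlapped between groups at 4.39 and 3.73 in *Ddb1*-deficient LSKs, against 4.88 and 4.05 in control LSKs. *Cebpe*, the regulator of secondary granule genes, was not analysed here.

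**Figure D4:**
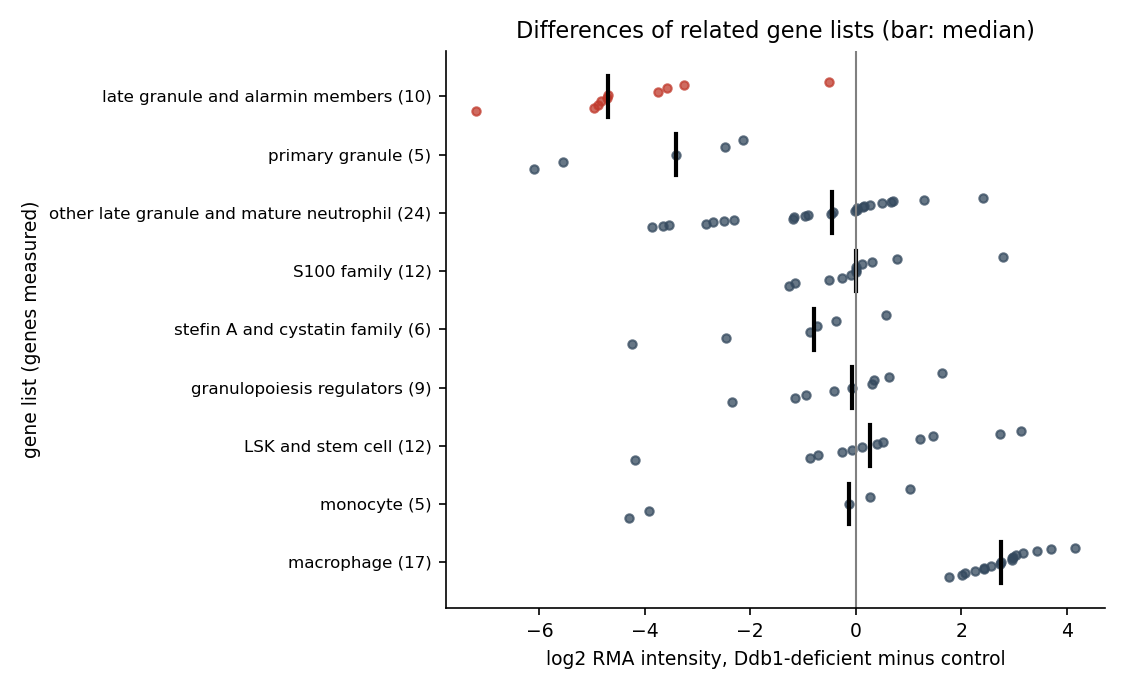
Log2 RMA intensity of *Ddb1*-deficient minus control LSKs (x axis) for every measured gene of 9 gene lists (y axis, number of genes in brackets), with 1 point for each gene and a black bar at the median. The 10 late granule and alarmin genes have a median of -4.71 and the primary granule genes one of -3.41, while the medians of the other S100 genes (0.00) and of the granulopoiesis regulators (-0.06) lie near 0 and that of the macrophage markers lies at 2.75.

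In the genome 4 of the 10 genes lie on chromosome 9 (*Camp*, *Ltf*, *Mmp8* and *Ngp*) and 3 on chromosome 3 (*Chil3*, *S100a8* and *S100a9*). *S100a8* and *S100a9* are direct neighbours with 0 protein-coding genes between them, whereas 8 lie between *Camp* and *Ngp* and 20 between *Ngp* and *Ltf*. Of 28 genes within 2 positions of a member that were measured and are not members themselves, 0 were lower and 2 higher at an unadjusted p under 0.05, near the 6.03% and 4.90% of all genes, with log2 differences from -0.85 (*Map4*) to 1.15 (*Ccrl2*, the higher ones being *Ccrl2* and *Pcdh17*). Many of these neighbours lay below the median probe set (log2 2.06) on all 4 arrays, so that lower signal could hardly be seen for them. *Pcdh17* was among these, at 1.80 and 1.86 in *Ddb1*-deficient LSKs, against 1.35 and 1.18 in control LSKs. The stefin A gene *Stfa2*, next to *Stfa3*, was not measured. *S100a6*, beside the calprotectin genes, was at 4.83 and 3.30 in *Ddb1*-deficient LSKs, against 4.09 and 4.02 in control LSKs.

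The genes with the most similar course over the 4 arrays were searched by Euclidean distance between centred log2 values and the mean profile of the 10 genes. The 5 nearest were *Tnfrsf19* (distance 0.36), *Fcnb* (0.43), *Stfa2l1* (0.76), *Bcl6* (0.76) and *Flt3* (0.81), while the members themselves lay between 0.53 (*S100a8*) and 3.85 (*Mmp8*). *Fcnb*, a ficolin of innate immunity, had 1.97 and 1.53 in *Ddb1*-deficient LSKs, against 5.55 and 6.16 in control LSKs. *Flt3*, a cytokine receptor of multipotent progenitors, was at 2.00 and 1.49 in *Ddb1*-deficient LSKs, against 6.01 and 5.85 in control LSKs. With 4 arrays a short distance is a description of these values only.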

How the data were processed

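Total RNA (20 ng) of sorted LSKs was amplified in 2 cycles and hybridised to Affymetrix Mouse430_2 arrays, with 1 array for each of the 4 samples. The authors summarised the arrays by RMA in GeneSpring and deposited linear intensity values for 45101 probe sets. The deposited table also holds log2 values centred on the mean of the control arrays, which equal the log2 intensity less that mean and served as an alternative. A deposited table of the authors' own unpaired test (fold changes and p-values) was not used.

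Here 64 control probe sets were left out, and log2 of the deposited intensity was taken without a pseudocount. Gene symbols were updated through RefSeq names (34158 probe sets matched, 4650 renamed). Of 45037 probe sets, 37463 name 1 gene, 1460 several and 6114 none, and each of 20656 genes was read from its brightest probe set, by mean. *Ddb1*-deficient and control LSKs were compared with limma 3.58.1 in R 4.3.3 (lmFit and eBayes, 2 residual and 1.96 prior degrees of freedom), with Benjamini-Hochberg adjustment over all genes, and the procedure was tested on simulated data. The number of arrays limits the precision. RMA brings the arrays to 1 distribution of probe intensities, so that only signal relative to other genes is compared, and low values are compressed toward the background.

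The 10 genes and all gene lists were chosen with earlier results of these data known. A rule gave up to 4 genes of each list by size of the difference among those with groups that did not overlap, an unadjusted p under 0.05 and a brighter group whose mean exceeded the median probe set, together with the defining markers of cell types, the 5 nearest profiles and neighbours in the genome, and the text names some of these genes. *Fpr1*, *Lyz2*, *Cybb*, *Csf3r*, *Itgam*, *Itgb2*, *Csf1r*, *S100a11*, *Fn1*, *Ms4a6c*, *S100a10*, *Cebpa*, *Cstb*, *Chil4*, *Chit1*, *Prtn3* and the same-array comparison of *S100a8* with *S100a9* were chosen after their values were seen. Alternatives were a further quantile normalization or median centring, the centred log2 values, and every probe set or the mean of a gene's probe sets. Others were a filter or floor at the median probe set and leaving out probe sets with the suffix _x_at or _s_at. The rest were limma with trend and robust variance, the methods' t-test, the replicate number as a block and leaving out each array.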

Additional observations from a re-analysis of the deposited data

How the results depend on the processing

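Of 149 values of the 10 genes over 15 alternative settings, 148 kept their direction. No member passed the adjusted threshold under any setting, so that this threshold says nothing about stability. The exception was *Mmp8*, at 0.0364 without control array 2 (range with 1 array left out -1.03 to 0.0364). Most of the count of kept directions was fixed in advance and says little about stability. A change of test, variance model, block or gene filter leaves the log2 difference of a member as it is. Leaving out 1 array cannot reverse the direction of a gene whose groups do not overlap. The median log2 difference of the 10 genes ranged between -5.07 and -3.92 with 1 array left out, with -3.92 reached without *Ddb1*-deficient array 2, and it was -4.60 after a further quantile normalization and -4.75 after median centring. The lowest adjusted p of any of the 10 genes over these settings was 0.1. When every probe set was tested, 2468 of 45037 were lower at an unadjusted p under 0.05, a larger total than the 20656 genes. Over all genes 1245 were lower at that threshold, against 771 by the methods' t-test. The t-test called 2 genes after Benjamini-Hochberg adjustment where limma called 0. The count of probe sets and the count of genes have unlike totals. The count over genes also changed with the arrays used. With 1 array left out this count was between 744 and 1632, the lowest without control array 1 and 804 without control array 2. Of the 10 genes, 9 were lower at that threshold by limma, 6 by the methods' t-test, and between 7 (without control array 2) and 10 (without control array 1) with 1 array left out. A group left with 1 array was assumed to vary like the other. With the replicate number as a block limma called 0 genes, 1110 were lower and 886 higher at an unadjusted p under 0.05, and the adjusted p of the 10 genes lay between 0.391 and 0.696. The deviations of same-numbered arrays had r = -0.0159 across all genes, and the numbers were not taken as pairs. This r counts dim genes like bright ones and cannot exclude that same-numbered arrays share a source. Array 1 was low and array 2 high in *Xist* in both groups. *S100a8* has no value when probe sets with the suffix _x_at or _s_at are left out. The cause of these shifts was not tested. Signal close to the median probe set limits the size of the differences of *Chil3*, *Lcn2* and *Mmp8*.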

Other observations

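Several granule and enzyme genes of other granulocytes had lower signal in *Ddb1*-deficient LSKs. *Prg2*, the major basic protein of eosinophils, had log2 intensities of 1.77 and 2.75 in *Ddb1*-deficient LSKs, against 5.57 and 5.0 in control LSKs. *Hdc*, the histamine-forming enzyme of mast cells and basophils, was at 1.69 and 2.86 in *Ddb1*-deficient LSKs, against 5.06 and 4.88 in control LSKs, and the mast cell protease gene *Cpa3* at 1.84 and 1.91 in *Ddb1*-deficient LSKs, against 3.09 and 3.12 in control LSKs. Of 6 mast cell and basophil genes 4 were lower and 0 higher at an unadjusted p under 0.05 by limma, and of 6 eosinophil genes 2 were lower and 1 higher, against 6.03% lower and 4.90% higher over all genes, with 0 called after adjustment in either list. *Ear2*, a ribonuclease that macrophages also make, was the higher eosinophil gene, at 7.48 and 8.27 in *Ddb1*-deficient LSKs, against 6.19 and 6.47 in control LSKs.

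Monocyte genes were split. *F13a1* was at 2.37 and 1.80 in *Ddb1*-deficient LSKs, against 6.56 and 6.23 in control LSKs, and *Ccr2*, a chemokine receptor of inflammatory monocytes, at 2.34 and 2.49 in *Ddb1*-deficient LSKs, against 6.82 and 5.85 in control LSKs. *Cx3cr1* was higher, at 4.56 and 4.68 in *Ddb1*-deficient LSKs, against 3.60 and 3.57 in control LSKs, and *Fn1* and *Ms4a6c* overlapped between the groups.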
